A study of Mus musculus with 378 samples.

Results

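The 4 population libraries of a tumour T cell series were set beside the single cells of the same samples, to show which RNAs a sorted population held beyond its single cells. They were chosen by titles ending in Population, and the series holds 94, 92, 94 and 94 single-cell libraries beside them. Every library was made by Smart-seq2, which amplifies whole transcripts from sorted cells in plate wells. All came from T cells that had infiltrated B16F10 tumours, a transplantable mouse melanoma, in C57BL/6 mice. The groups were CD8 and CD4 cells, each from wild type (WT) and IL27raKO (KO) mice, with 1 population library each. Where 4 values stand in a row, CD8 comes before CD4 and, within each, WT before KO. The knockout targets the receptor for IL-27, a cytokine that acts on T cells, and the controls carried no named allele. Age, number of animals, pooling of animals and the number of cells per population library are not given in the labels. The protocol speaks of CD8+ T cells, so the CD4 label rests on the titles.

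Each population value was set beside the mean FPKM (sequenced fragments per gene length and library size, scaled further by the authors) over the single cells with at least 1000 genes above 0. This kept 67, 74, 79 and 78 cells. The difference is log2(population FPKM + 1) minus log2(mean single-cell FPKM + 1), and it understates the change of low genes. A gene was called higher or lower past 4-fold (a difference of 2) with at least 10 FPKM on the higher side. It was counted as tested with at least 10 FPKM on either side. Counts on gene lists are over all listed genes in the data, tested or not, unlike the shares of tested genes. There is 1 population library per group, so no single comparison has a replicate check. Read counts are not in the values, so the depth of each library is unknown. The population libraries had 11134 to 12035 genes above 0, against a median of 2307 to 2919 in a kept cell and 13032 to 14605 in at least 1 cell of a group.

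The T cell receptor component Cd3e was present in all 4 population libraries, at 456, 486, 261.4 and 359.6 FPKM. The coreceptors followed the titles. Cd8a was at 1092 and 1628 FPKM in the CD8 libraries and at 0.47 and 4.16 in the CD4 libraries. Cd4 was at 766 and 870 FPKM in the CD4 libraries, listed at 0 in WT CD8 and at 0.56 in KO CD8. Cd8b1, the other CD8 chain, stood apart from Cd8a in the WT CD4 population, at 159.7 FPKM against 3.36 in its cells. The targeted gene, Il27ra, did not separate the genotypes. On the log2(FPKM + 1) scale it was at 5.60 and 6.52 in the CD8 populations and 8.01 and 6.59 in the CD4 populations, WT first; the deleted part of the gene is not given in the labels. Genotype is therefore taken from the labels alone, and KO stands for libraries labelled IL27raKO.

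Some single cells went in part against their T cell label. In WT CD8, 1 cell carried 96.6% of the summed class II FPKM of all 67 cells, had Cd3e listed at 0 and had 1 of 13 T cell genes above 0. In KO CD8, the leading 2 class II cells carried 48% and 23.4% of the sum and had 0 and 1 of 13 T cell genes above 0. In KO CD4, the leading 2 carried 56.6% and 32.7%, with 5 and 11 of 13 T cell genes and 12 and 11 of 20 macrophage genes above 0. In WT CD4, the leading class II cell carried 14.9%, summed to 1963 FPKM of class II and had all 13 T cell genes above 0. Across the groups, 44 kept cells had at least 3 markers of the macrophage, class II or dendritic list (10, 14, 8 and 12). The class II medians and some other values are given with and without these cells. The rest, the dendritic medians among them, include these cells.

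A sorted population pools RNA from many cells, so a rare cell with very abundant transcripts can appear in it without being caught among single cells. Pigment cells and B16 melanoma make melanosome proteins: Pmel builds the fibrils on which melanin is laid down, and Tyr, Tyrp1 and Dct are the enzymes of melanin synthesis. Macrophages, dendritic cells and B cells display peptides on MHC class II molecules such as H2-Aa with H2-Ab1, which Cd74, the invariant chain, escorts through the cell. Mouse T cells do not normally make class II. Plasmacytoid dendritic cells, the main type I interferon producers, carry the lectin Siglech and depend on the transcription factor Tcf4.

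The promoters of these RNAs are shown because 2 source-cell programmes lead the results, the pigment genes and class II. The sequences are from RefSeq (GRCm38.p6), 300 bases each, from 250 before to 50 after the annotated start, 5′ to 3′ on the gene's strand. Capitals in the first 3 mark CATGTG or its reverse complement CACATG, the core of the sites that the melanocyte factor Mitf is known to bind. Dct lies at chr14:118052197-118052496 on the minus strand, Tyr at chr7:87493463-87493762 on the minus strand and Tyrp1 at chr4:80833963-80834262 on the plus strand.
Dct: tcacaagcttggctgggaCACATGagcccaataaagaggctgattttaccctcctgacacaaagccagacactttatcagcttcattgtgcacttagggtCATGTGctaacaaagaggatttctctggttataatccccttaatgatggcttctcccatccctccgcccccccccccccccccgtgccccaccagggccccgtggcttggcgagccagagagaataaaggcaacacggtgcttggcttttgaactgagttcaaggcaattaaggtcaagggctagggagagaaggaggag
Tyr: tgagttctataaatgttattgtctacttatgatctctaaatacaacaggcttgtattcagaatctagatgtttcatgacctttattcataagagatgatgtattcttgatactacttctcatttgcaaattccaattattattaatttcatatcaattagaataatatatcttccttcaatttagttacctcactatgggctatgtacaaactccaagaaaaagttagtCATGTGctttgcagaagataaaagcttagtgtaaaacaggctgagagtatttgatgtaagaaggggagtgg
Tyrp1: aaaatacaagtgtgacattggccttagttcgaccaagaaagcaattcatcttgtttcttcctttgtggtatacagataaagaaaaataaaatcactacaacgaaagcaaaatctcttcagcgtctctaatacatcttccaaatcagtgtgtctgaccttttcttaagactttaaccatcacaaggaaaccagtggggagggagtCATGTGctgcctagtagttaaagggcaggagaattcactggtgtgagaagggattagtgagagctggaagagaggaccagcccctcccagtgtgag
The match lay 21 bases before the start in Tyr, 46 before it in Tyrp1, and 150 before it in Dct, which has another match further upstream on the opposite strand. CATGTG on either strand was present in 7 of the 13 melanoma-list genes with a RefSeq promoter and in 14.2% of all 32851 promoters of that length. The longer TCATGTGC (either strand), which contains it, was present in 4 of the 13 (Dct, Trpm1, Tyr and Tyrp1) and in 0.892% of all promoters. A match of letters is not evidence of binding here.

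In the next pair, capitals mark CTGATTGG, the Y box of class II promoters. H2-Aa lies at chr17:34287774-34288073 on the minus strand and H2-Eb1 at chr17:34305617-34305916 on the plus strand.
H2-Aa: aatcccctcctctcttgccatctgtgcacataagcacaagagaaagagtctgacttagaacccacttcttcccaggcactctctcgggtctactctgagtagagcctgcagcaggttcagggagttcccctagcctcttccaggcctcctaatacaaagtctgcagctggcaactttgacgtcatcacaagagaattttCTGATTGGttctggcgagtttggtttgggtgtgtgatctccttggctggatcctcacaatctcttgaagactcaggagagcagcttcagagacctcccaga
H2-Eb1: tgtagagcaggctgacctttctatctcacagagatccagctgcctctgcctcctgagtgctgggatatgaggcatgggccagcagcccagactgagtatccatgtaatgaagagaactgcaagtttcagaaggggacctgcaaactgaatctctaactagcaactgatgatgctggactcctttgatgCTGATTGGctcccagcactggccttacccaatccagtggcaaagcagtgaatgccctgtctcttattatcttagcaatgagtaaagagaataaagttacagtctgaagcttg
The match lay 51 bases before the start in H2-Aa and 62 before it in H2-Eb1. It was present, on either strand, in 3 of the 7 class II genes with a RefSeq promoter (the third was H2-Oa) and in 4.1% of all promoters.

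Across all genes, the population libraries held more than their single cells. The median difference over tested genes was 0.85, 0.81, 1.03 and 0.67, and 77.2% to 87.1% of tested genes were positive. The summed FPKM of a population library was 1.88 to 2.25 times that of its mean cell, so the differences carry an offset of scale. Its size for a given gene was not measured. In WT CD8, 1254 of 8530 tested genes were higher (14.7%) and 1.89% were lower. KO CD8 had 952 of 8595 higher (11.1%) and 1.78% lower. WT CD4 had 1405 of 8509 higher (16.5%) and 1.81% lower, and KO CD4 had 877 of 8413 higher (10.4%) and 2.88% lower. The split depended on the scale. With every library rescaled to the same total, the higher and lower shares became 5.35% and 12.3% in WT CD8, 3.36% and 4.43% in KO CD8, 5.43% and 8.51% in WT CD4, and 3.58% and 6.93% in KO CD4 (over the same denominators). The share of higher among all calls went from 88.6%, 86.2%, 90.1% and 78.4% to 30.2%, 43.1%, 39% and 34%, and every gene still called higher was among those called higher before.

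**Figure D1:**
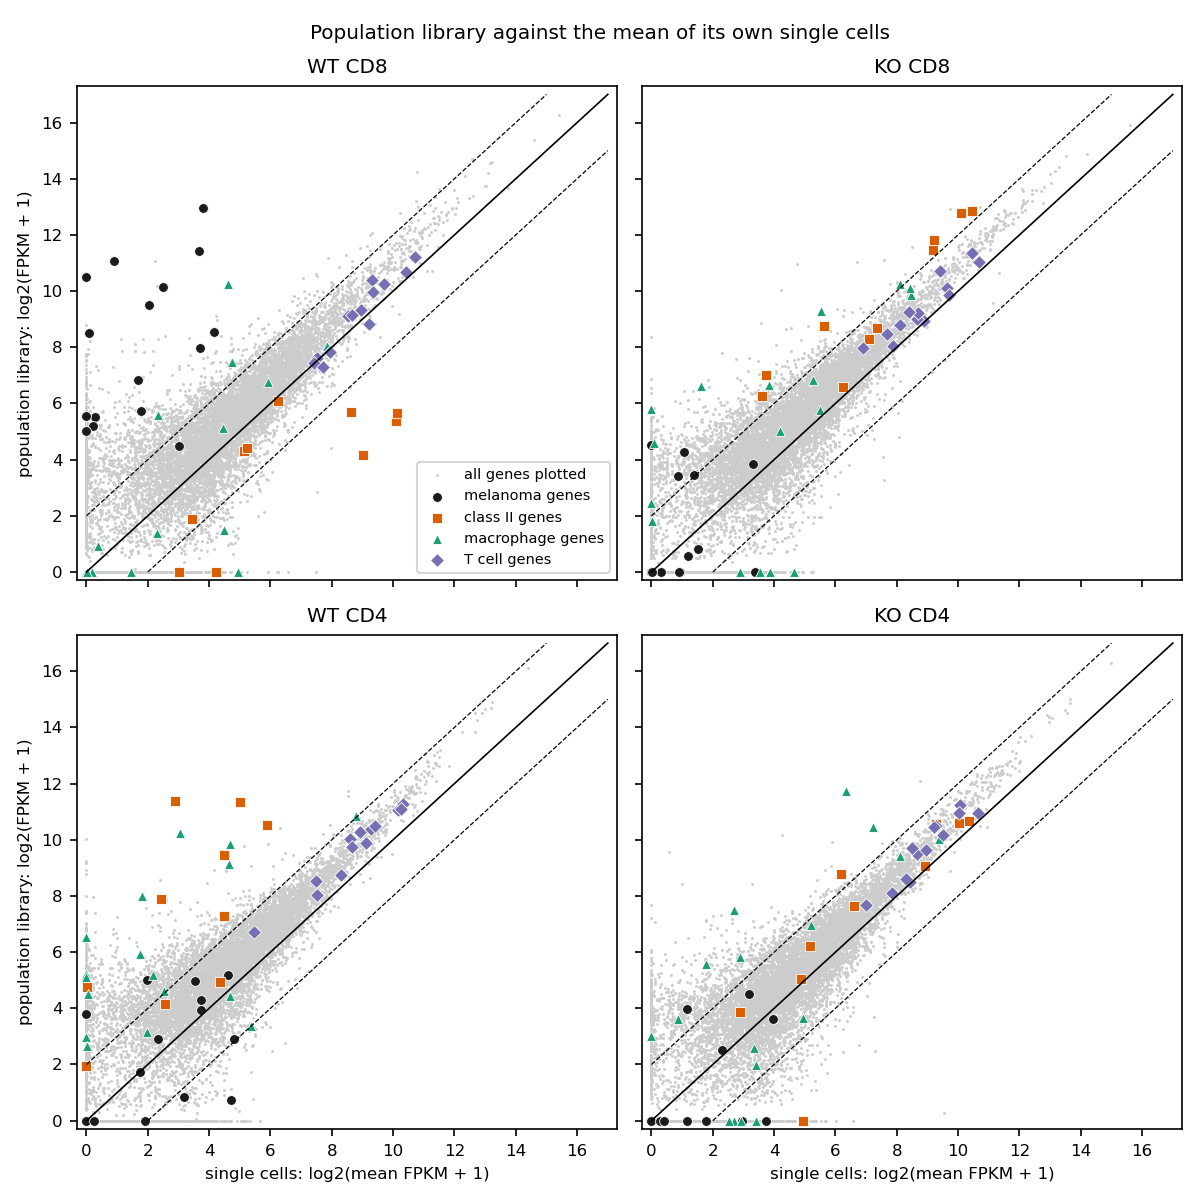
Each panel plots, for 1 genotype and cell type, log2(FPKM + 1) of the population library against log2(mean FPKM + 1) of its single cells, 1 point per gene, with marker lists in colour. The melanoma genes stand high above the diagonal in WT CD8, while the class II genes stand below it there and above it in KO CD8 and WT CD4.

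Of the genes called higher, 840, 543, 895 and 459 were called in no other library, or 67%, 57%, 63.7% and 52.3% of each list, and 11 genes were higher in all 4. Each library had 10.4% to 16.5% of its tested genes called, and nothing particular to a library is read from these shares. Genes at 100 to 1000 FPKM in a population were seldom missed entirely, with 0.715%, 0.085%, 0.646% and 0.0917% in no own cell, whereas at 1 to 10 FPKM the shares were 15.2%, 13.8%, 16.2% and 11.6%. Some named genes reached at least 100 FPKM in a population and were above 0 in no kept cell of any group. They included Ptgds, Tinagl1 and Gsta2 in WT CD8, Il3 in KO CD8, and Sostdc1 and Crabp2 in KO CD4.

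The WT CD8 population held melanoma RNAs at a far higher level than its mean single cell. Of 20 melanoma-list genes, 15 were called higher there and none lower, against 14.7% and 1.89% of all tested genes. The median difference was 5.09 against 0.85 over all tested genes, and 16 of the 20 passed the level of 10 FPKM. The summed FPKM of the list was 17540, or 0.91% of the library, against 74.5 in the mean cell, or 0.00799%. The cells were not free of these RNAs: 18 of 67 (26.9%) had at least 3 of the 20 genes above 0, against 10.8%, 17.7% and 7.69% in the other groups. The median WT CD8 cell summed to 14.4 FPKM. Tyr had a low value in nearly every cell of every group, as given below, and it enters these shares and sums. The other populations did not show it: the list made up 0.00394% of the KO CD8 library, 0.0101% of WT CD4 and 0.00294% of KO CD4, with 2, 2 and 1 genes called higher and medians of -0.17, 0.09 and 0.00. In bulk RNA, fewer cells of a type and less RNA per cell cannot be told apart.

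Pmel (chr10:128704195-128720238, mm10) led by level, at 7963 FPKM in the WT CD8 population, 9.73 in KO CD8, 35.2 in WT CD4 and listed at 0 in KO CD4. Its single-cell means were 13.04, 0.817, 23.4 and 1.23 FPKM. Only the WT CD8 population stood apart, by a difference of 9.15, and 6 of its 67 cells had any Pmel (8.96%, exact Clopper-Pearson 95% interval 3.36 to 18.5%, counting error only). Mlana, a melanosome membrane protein, was at 1456 FPKM in the WT CD8 population and above 0 in 0 of 67 cells, which at 3 cells of 67 allows a share of up to 4.48% of cells with a value, not of cells expressing it. Elsewhere its population values were 0, 12.7 and 11.2 FPKM. Of the melanin enzymes, Dct was at 2153 against 0.859 FPKM (difference 10.18) and Tyrp1 at 2770 against 11.7 (7.76). Tyr differed less, at 250.5 against 11.97 FPKM (4.28), and unlike the others it had a low value in nearly every cell, 66 of 67 in WT CD8 and 71 of 74, 76 of 79 and 74 of 78 in the other groups.

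Transporters, regulators and trafficking genes of the melanosome were in excess too. The transporters Slc45a2 (724.6 against 3.08 FPKM, difference 7.47) and Slc24a5 (1137 against 4.64, 7.66) were both called. Slc24a5 overlaps Myef2 on the opposite strand, and reads of the pair may not be separable, although Myef2 itself was at 25.6 against 18.6 FPKM. Rab38, a small GTPase that delivers melanin enzymes, was at 357.4 against 0.0634 FPKM. Mitf, the master transcription factor of the pigment lineage, was lower in level, at 44.99 against 0.22 FPKM (5.24), and the cation channel Trpm1 was at 376.8 against 16.9 (4.40). With libraries rescaled to the same total the Trpm1 difference turned, to -0.34. Members not called higher included Sox10 (21.1 against 7.03 FPKM), Mcam (9.08 in the population, under the level), Cspg4, and Ednrb, which was listed at 0.

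Genes outside the list joined it in the same library. Ptgds, a prostaglandin D synthase made by pigment cells among others, was at 1317 FPKM and in no cell. Cd63, a tetraspanin of lysosomes and melanosomes, was at 2134 against 3.66 FPKM (8.84), while KO CD8 had 166.8 against 103.1. Gpnmb, a relative of Pmel also made by macrophages, was at 1165 against 3.91 FPKM (7.89). Tmem176b (437.7 FPKM), Car14 (344.2 FPKM), a membrane carbonic anhydrase, and Ccl1 (297.7 FPKM) completed the 10 genes furthest above the WT CD8 cells, with Mlana, Ptgds, Dct, Pmel, Rab38, Cd63 and Gpnmb. Glycolysis genes were higher there as well: 7 of 15 were called, with a median of 1.99, against 0, 1 and 0 called and medians of 1.41, 1.32 and 1.05 in the other libraries. All tested genes of WT CD8 had 14.7% called higher and a median of 0.85. Pgk1 was at 4045 against 605 FPKM (2.74) and Gapdh at 26600 against 6080 (2.13). Whether these RNAs share a source with the melanoma genes was not tested.

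**Figure D2:**
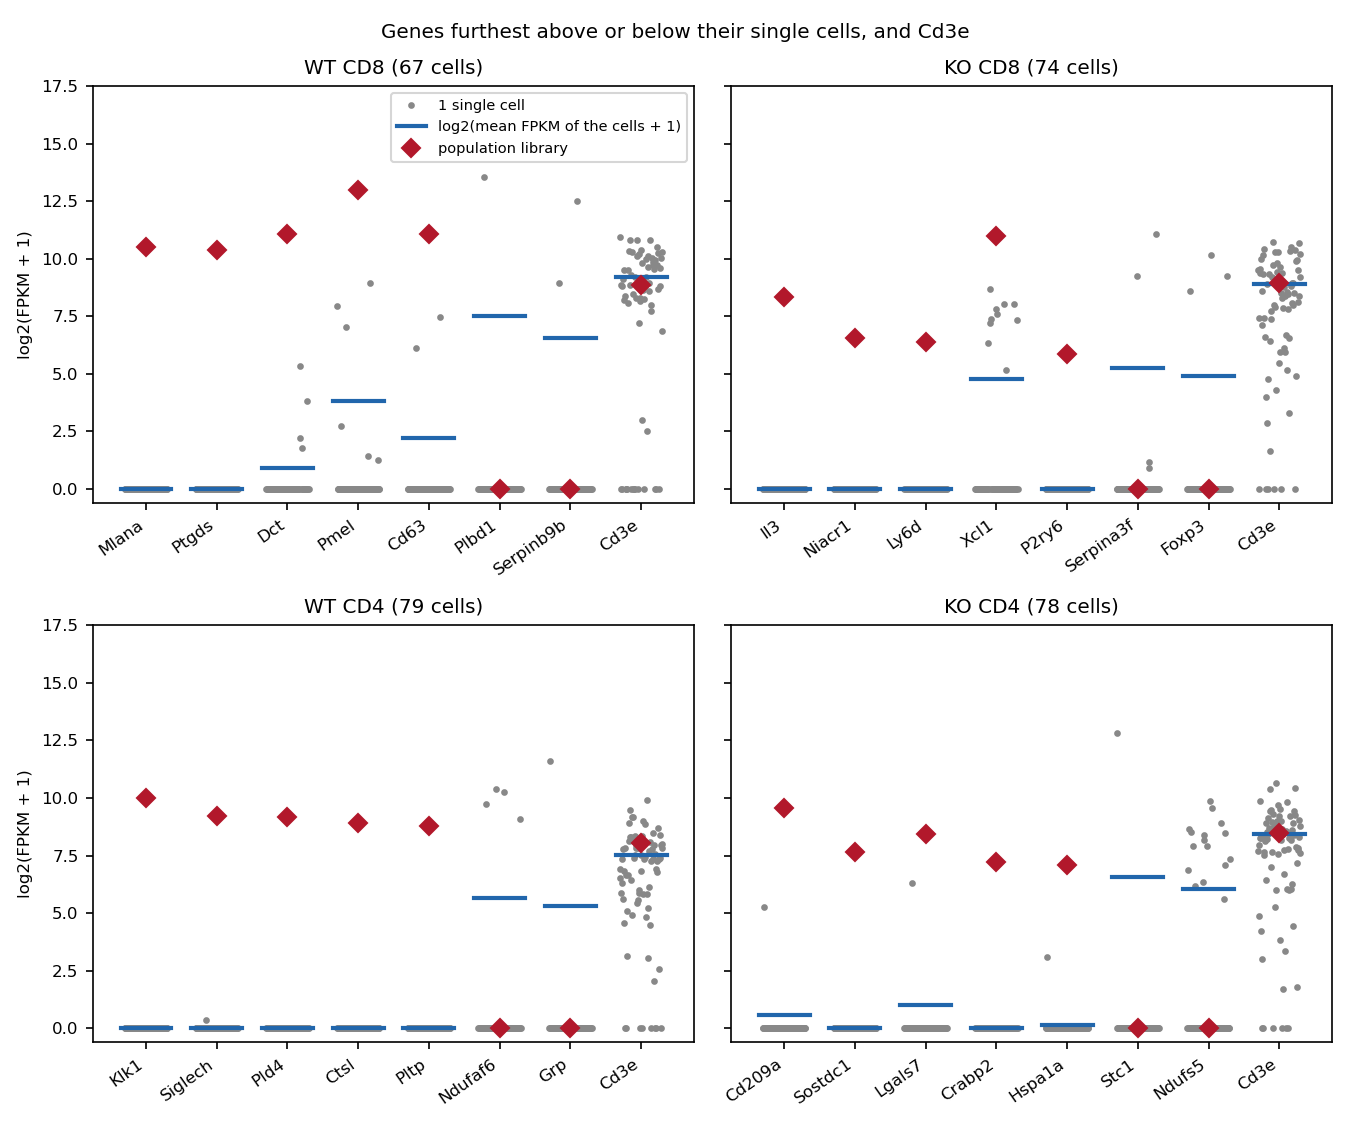
Each panel shows log2(FPKM + 1) in every kept single cell (points) and in the population library (the larger marker) for the genes furthest above and below the cells, and for Cd3e. Mlana sits at 10.51 in the WT CD8 population with all 67 cells at 0, whereas Cd3e in the population lies within the cells' range in every panel.

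Class II ran in opposite directions in the 2 CD8 groups. In WT CD8, 0 of 10 class II genes were higher and 5 lower, with a median of -2.97. In KO CD8, 7 were higher and none lower (median 2.48), and WT CD4 also had 7 higher and none lower (4.70). KO CD4 had 1 higher and 1 lower (0.76). Over all tested genes the higher shares were 14.7%, 11.1%, 16.5% and 10.4%, and the lower shares 1.78% to 2.88%. The summed class II FPKM was 266.2, 22180, 7945 and 5951 in the populations and 3299, 4105, 167.3 and 3737 in the mean cells. The single-cell side rested on few cells. Without the cells carrying at least 3 markers of the macrophage, class II or dendritic list, the medians were 1.66, 7.99, 4.86 and 4.65. Those cells were picked in part by their class II genes, so leaving them out lowers the cell means by construction and is no separate evidence.

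H2-Aa (chr17:34282744-34287823, mm10), the class II alpha chain whose promoter is printed above, was at 40.2, 7307, 2678 and 1541 FPKM in the populations. Its single-cell means were 1097, 1401, 6.40 and 1044 FPKM. The differences were -4.74, 2.38, 8.50 and 0.56, and a single cell at 73450 FPKM made up 99.9% of the WT CD8 sum. In WT CD4, 3 of 79 cells had any H2-Aa, the highest at 491 FPKM. Cd74 followed, at 50.7, 2787, 1472 and 1499 FPKM in the populations and 393, 575, 58.1 and 626 in the cells. It was seen in more cells, 6 of 67, 12 of 74, 20 of 79 and 19 of 78. Without the marker cells, which these genes helped to pick, the WT CD8 differences were 5.32 for H2-Aa and 4.04 for Cd74.

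Macrophage genes were most in excess in WT CD4. Of 20, 12 were higher and none lower there (median 2.99), against 3 higher and 2 lower in WT CD8 (0.00), 6 and 3 in KO CD8 (1.63) and 6 and 0 in KO CD4 (0.97). The higher shares of all tested genes were 14.7%, 11.1%, 16.5% and 10.4%. Only 8, 14, 14 and 10 of the 20 macrophage genes passed the level of 10 FPKM. The counts over 20 and the tested shares are therefore on unlike bases. Summed FPKM was 1860, 4355, 5177 and 6992 in the populations and 417, 1184, 581 and 1303 in the cells. Lyz2, the lysozyme of macrophages and neutrophils, was at 33.9, 622, 927 and 3417 FPKM in the populations against 20.7, 45.1, 24.7 and 80.5 in the cells. It was highest in KO CD4, by a difference of 5.39, and lowest in WT CD8. Tyrobp, the signalling adaptor of myeloid and NK receptors, was at 1212 against 7.35 FPKM in WT CD4 (7.18), where 1 of 79 cells had it. Csf1r, the receptor for macrophage growth factor, was at 98.3 against 2.08 FPKM in KO CD8, 91.2 in WT CD4 with none in its cells, and 46.6 against 2.44 in KO CD4; it was listed at 0 in the WT CD8 population. The complement genes ran the other way in KO CD8, with C1qb and C1qc listed at 0 in the population and at 24.3 and 13.5 FPKM in the cells.

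The 10 genes furthest above the WT CD4 cells included Siglech and Spib, both known from plasmacytoid dendritic cells. Siglech (chr7:55768178-55778925, mm10) was at 49.8, 108.6, 600 and 353.3 FPKM in the populations. Its single-cell means were 0.234, 56.2, 0.00342 and 80.3. The population exceeded the cells in all 4 groups, by 9.23 in WT CD4 and by 0.94 in KO CD8, where 1 cell at 4089 FPKM held 98.3% of the sum. Spib, a transcription factor of B cells and plasmacytoid dendritic cells, was at 248.2 against 0.165 FPKM in WT CD4. The kallikrein Klk1 (1035 FPKM), the phospholipase-family protein Pld4 (575), the protease Ctsl (482.5), the lipid transfer protein Pltp (439), Alox5ap (250.6), Rnase6 (177.9) and Smim5 (175.5) were above 0 in none of the 79 WT CD4 cells, which allows up to 3.80% of cells with a value.

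The same RNAs were caught in single cells of the other CD4 group. One KO CD4 cell had Klk1 at 18840 FPKM, and the highest KO CD4 cells for Siglech and Ctsl were at 6265 and 11880. The KO CD4 population differed less from its cells, with Klk1 at 440.7 against 241.6 FPKM and Ctsl at 302.6 against 152.4. Transcription factors chosen after their values were seen were higher in WT CD4 too: Tcf4 at 42.5 against 0.149 FPKM, Bcl11a at 52.5 with none in the cells, and Irf8, which acts in several myeloid lineages, at 703 against 106.3 (2.71). On the dendritic list, 6 of 12 genes were higher in WT CD4 (median 2.76), 5 in WT CD8 (0.39), 1 in KO CD8 (0.84) and 5 in KO CD4 (1.79). Among all tested genes 16.5%, 14.7%, 11.1% and 10.4% were higher, in the same order.

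Cd209a, a lectin of monocyte-derived dendritic cells, marked the KO CD4 population, at 757 FPKM against 0.484 in its cells (a difference of 9.0). The other populations had 11.3, 16.3 and 21.7 FPKM, and in KO CD8 the cells were above the population, at 185.2 (-3.43, and 4.11 without the marker-bearing cells). Sostdc1, an inhibitor of BMP and Wnt signals, was at 201.3 FPKM in KO CD4 and listed at 0 in the other populations. Crabp2, which carries retinoic acid, was at 149.2 FPKM in KO CD4 and at most 3.83 elsewhere, and the galectin Lgals7 at 341.6 and at most 4.91. Spp1, the osteopontin gene of macrophages and tumour cells, was at 1155 against 17.9 FPKM in KO CD4 (5.94) and at 1604 against 2582 in KO CD8, where 1 cell held 91.3% of the sum. Hspa1a, a heat shock chaperone, was at 134.5 against 0.0963 FPKM, but it shares reads with its near-identical copy Hspa1b and is uncertain. Tppp3, Stfa3, Cd200r4 and Tmem254c completed the KO CD4 list. The KO CD4 population also held NK-type RNAs: 5 of 10 NK genes were higher (median 1.72), among them Gzma, a serine protease of cytotoxic granules, at 976 against 58.2 FPKM (4.04). The other libraries had 0, 2 and 0 NK genes higher. Of all tested genes, 10.4% were higher in KO CD4 and 14.7%, 11.1% and 16.5% in the others.

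**Figure D3:**
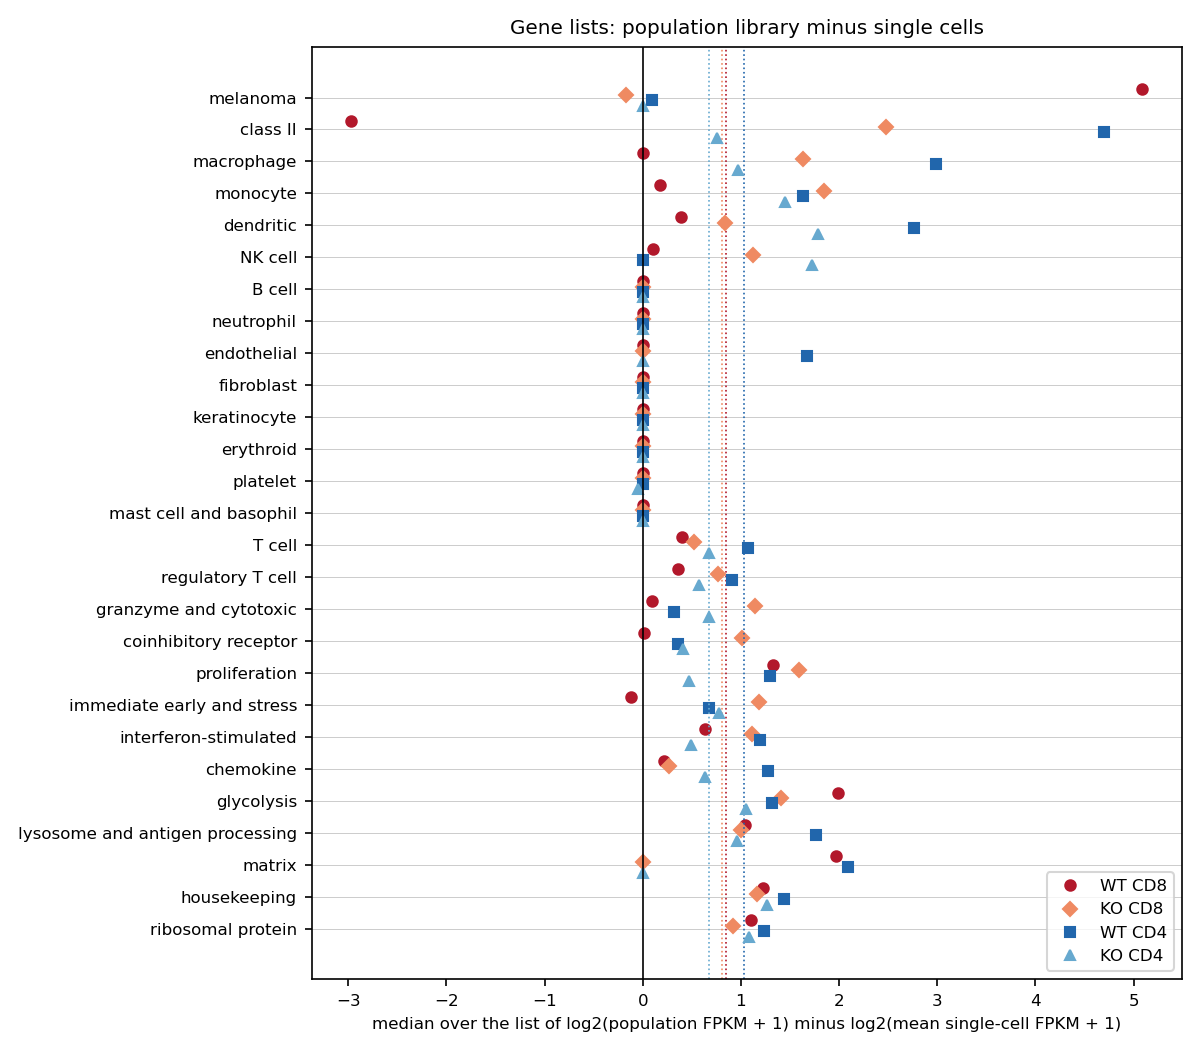
The plot gives, for each gene list and each of the 4 libraries, the median over the list of the population minus single-cell difference in log2(FPKM + 1). The melanoma list reaches 5.09 in WT CD8 alone, class II runs from -2.97 in WT CD8 to 4.70 in WT CD4, and the T cell list stays between 0.40 and 1.07.

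The 10 genes furthest above the KO CD8 cells included 3 that activated lymphocytes are known to make, Il3, Xcl1 and Gzme. Il3, a cytokine of activated T cells and mast cells, was at 324.8 FPKM in the KO CD8 population and listed at 0 in the other 3 and in every kept cell. Xcl1, the chemokine that draws cross-presenting dendritic cells, was at 1991 FPKM there against 26.1 in the cells (6.20); WT CD8 had 128.4 against 93.9 and KO CD4 25.7 against 2.18. Further cytokines, chosen after their values were seen, were also higher: Il2 at 465 against 10.8 FPKM (5.30), Tnf at 412 against 22.5 (4.14) and Ifng at 2190 against 189.9 (3.52). In WT CD8 the same 3 were at 0, 13.3 and 205.8 FPKM in the population and 2.94, 10.8 and 384.8 in the cells. Il10, another cytokine chosen in this way, ran against them in KO CD8, where it was called lower. That direction turned when its highest cell was left out.

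The granzymes of the cluster on chromosome 14 rested on very few cells. Gzme was at 1057 FPKM in the KO CD8 population and in 1 of 74 cells (mean 17.6). Gzmd was at 2084 FPKM in the population (difference 4.34) and Gzmf at 3727 against 635 in the cells (2.55), each in 2 of 74 cells, with 99.5% and 99.1% of the sum in the highest cell. Gzmc, at 2220 against 642 FPKM (1.79), was not called. These genes are close relatives whose reads may be split between copies. On the granzyme and cytotoxic list as a whole, 5 of 16 genes were higher and 1 lower (median 1.14), against 11.1% and 1.78% of all tested genes. The rest of the 10 genes furthest above the KO CD8 cells were Niacr1, Ly6d, P2ry6, Fcgr1, Cgrrf1, Tnni1 and Il1rn, at 45.01 to 92.1 FPKM. Fcgr1, the high-affinity antibody receptor of macrophages, was at 54.6 FPKM and in none of the 74 cells.

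The T cell genes themselves differed little. Of 13, none was called in any library, with medians of 0.40, 0.52, 1.07 and 0.68 against 0.85, 0.81, 1.03 and 0.67 over all tested genes. Rescaled to the same total, the medians were -0.52, -0.43, -0.17 and -0.19, so the sign depends on the scale. Cd3e differed by -0.36, 0.05, 0.53 and 0.07, and Cd3d, its partner in the receptor complex, by 1.10, 1.30, 0.78 and 1.21. Housekeeping genes had medians of 1.23, 1.16, 1.44 and 1.27 and ribosomal protein genes of 1.10, 0.92, 1.24 and 1.08, with 4, 0, 1 and 0 of 16 and no ribosomal protein gene called. Proliferation genes were called higher in 0, 5, 5 and 2 of 20 (medians 1.33, 1.59, 1.30 and 0.47) and interferon-stimulated genes in 1, 2, 3 and 0 of 18 (0.63, 1.11, 1.19 and 0.49). Lysosome and antigen-processing genes were higher in 7 of 16 in WT CD4 (median 1.77) and in 2, 0 and 1 in WT CD8, KO CD8 and KO CD4. Beside these counts stand 14.7%, 11.1%, 16.5% and 10.4% of all tested genes called higher.

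Markers of several other source cells were low or listed at 0 on both sides. The B cell, neutrophil, mast cell and basophil, fibroblast, keratinocyte, erythroid and platelet lists had medians of -0.05 to 0.00 in all 4 libraries, medians that members at 0 on both sides decide. Neutrophil genes were higher in 1, 2, 1 and 0 of 11 and B cell genes in 1, 0, 2 and 0 of 12. Only 3, 4, 4 and 4 neutrophil genes and 2, 1, 3 and 1 B cell genes passed the level of 10 FPKM. Beside 14.7%, 11.1%, 16.5% and 10.4% of all tested genes higher, they are too few to show an excess or its absence. Some members were in excess. The mast cell and basophil list summed to 159.6 against 3.26 FPKM in KO CD4, where 2 of 9 genes were higher, among them Hdc, which makes histamine, at 142.2 against 2.46 FPKM. The fibroblast list summed to 160.4 against 4.26 FPKM in WT CD8 and to 134.5 against 18.5 in WT CD4, with 1 of 12 genes higher in each, and the neutrophil list to 274.7 against 65.3 in KO CD8. S100a8, the neutrophil calcium-binding protein, was listed at 0 in all 4 populations and their cell means. The endothelial list had a median of 1.67 in WT CD4 and 0.00 in the others, with 0, 1, 2 and 0 of 11 genes higher.

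Of the genes called lower, 48.4%, 41.8%, 56.5% and 40.9% were above 0 in at most 5 cells, and the highest single cell held a median of 55.7%, 43%, 49% and 49.5% of their summed FPKM. For genes called higher with any own cell above 0 that share was 45.1%, 53%, 55.8% and 57%, and over all tested genes 22.5%, 22.1%, 25.3% and 25.4%. Called genes of both directions were thus concentrated in few cells. The calls used the same cell means, so this contrast is no separate evidence. Plbd1, a lysosomal phospholipase-like protein, was listed at 0 in the WT CD8 population and was in 1 of 67 cells, at 11990 FPKM, the class II cell described above. Serpinb9b, Ifi205, Ifitm1 and Eif3j2 were the next lowest. KO CD8 had Serpina3f (0 against 37.4 FPKM) and Foxp3, the factor of regulatory T cells (0 against 29.01 FPKM, in 3 of 74 cells), followed by Tesc, Cpne7 and Thap11. WT CD4 had Ndufaf6, Grp (0 against 39.04 FPKM, 1 cell), Nudt14, Calca and Leng9.

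A value of 0 in a population was not proof of absence. In KO CD4, Rpl34, a ribosomal protein gene that cells normally express, was listed at 0 in the population and was above 0 in 36 of 78 cells (mean 49.04 FPKM); the other populations had 48.3, 129.5 and 85.1 FPKM. Ndufs5, of respiratory complex I, was at 0 against 64.3 FPKM (16 of 78 cells). The other 3 of the 5 lowest were Stc1 (0 against 93.2 FPKM, 1 cell), Gbp1 and H2-Ke6.

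**Figure D4:**
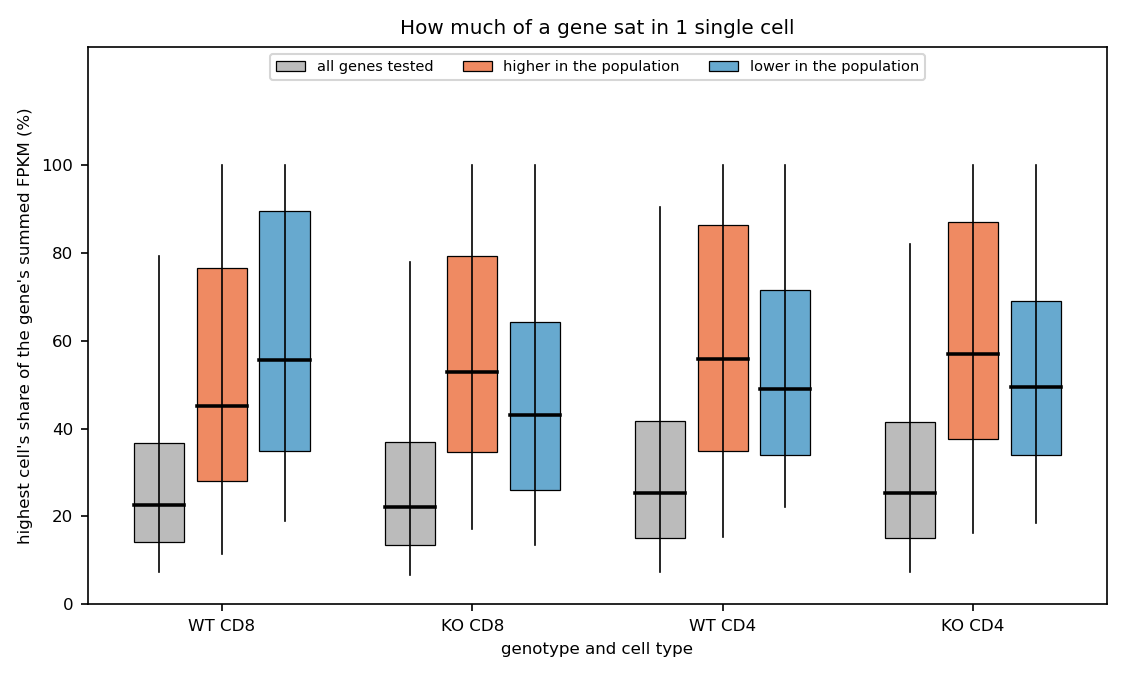
For the genes tested, called higher and called lower in each group, the plot gives the share (%) of a gene's summed single-cell FPKM that came from its highest cell, with the median and percentile ranges over genes. The median is 22.1 to 25.4% for tested genes and 43 to 57% for called genes.

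A limma fit with the sample as a block asked which genes differed between population and cells on average over the 4 samples. Of 11076 genes tested, 2184 were higher (19.7%) and 21 lower (0.19%) at a Benjamini-Hochberg adjusted p of 0.05, and 3915 and 82 at an unadjusted p of 0.05. These counts carry the offset: with each library rescaled to the same total 2 were higher and 5 lower, and with each sample centred on its median gene 1 was higher and 1 lower. An exact sign-flip test over 4 pairs cannot go below about 0.13, and the 4 samples differ in genotype and cell type.

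Ly6d and H2-Bl led. Ly6d, a lipid-anchored surface protein, was at 165.9, 82.3, 347.9 and 138.2 FPKM in the populations and 0, 0, 14.2 and 8.83 in the cells. It was above 0 in 1 of 79 and 1 of 78 CD4 cells. The populations did not overlap the cell means, but Ly6d was picked by the fit to these same values. The mean difference was 5.53 (SE 0.60, limma adjusted p = 0.00107), higher in 4 of 4, and 4.57 after rescaling (limma adjusted p = 0.0447). After centring it was 4.81 and no longer past the threshold (limma adjusted p = 0.0579). H2-Bl, a class I gene of the MHC region, was at 67.8, 26.1, 233.4 and 154.3 FPKM against 1.08, 0.571, 5.05 and 3.01. Its mean difference was 4.93 (SE 0.46, limma adjusted p = 0.000899), 4.07 after rescaling (limma adjusted p = 0.0282) and 4.21 after centring (limma adjusted p = 0.0318). H2-Bl, H2-Q1 and H2-Q2 share reads with near-identical class I copies, so these values are uncertain. Siglech (4.41, SE 1.10, limma adjusted p = 0.0245) and Slc24a5 (4.16, SE 0.81, limma adjusted p = 0.0104) were called as deposited and not after rescaling. Genes called higher in all 4 libraries by the 4-fold rule included Spns3, Cmss1, Fes and Aamdc.

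On the other side, Dusp2 was lower in every population. This phosphatase, induced early after T cell receptor signalling, was at 94.5, 66.1, 71.6 and 81.4 FPKM in the populations and 384.9, 285.9, 159.7 and 256.4 in the cells. The 4 populations lay below all 4 cell means, which is no separate evidence, since the fit to these values picked the gene. The mean difference was -1.73 (SE 0.24, limma adjusted p = 0.00303), -2.81 after rescaling (limma adjusted p = 0.00415) and -2.45 after centring (limma adjusted p = 0.0184). Dusp2 was above 0 in 37 of 67, 33 of 74, 17 of 79 and 24 of 78 cells, so it did not rest on 1 cell. Atxn2l was also lower in 4 of 4 (-1.71, SE 0.36, limma adjusted p = 0.0137, and -2.77 after rescaling, limma adjusted p = 0.0447), but after centring it was -2.43 and not past the threshold (limma adjusted p = 0.0579). Rps2, Eif3f and Itgb7 were called lower both as deposited and after rescaling, and not after centring.

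**Figure D5:**
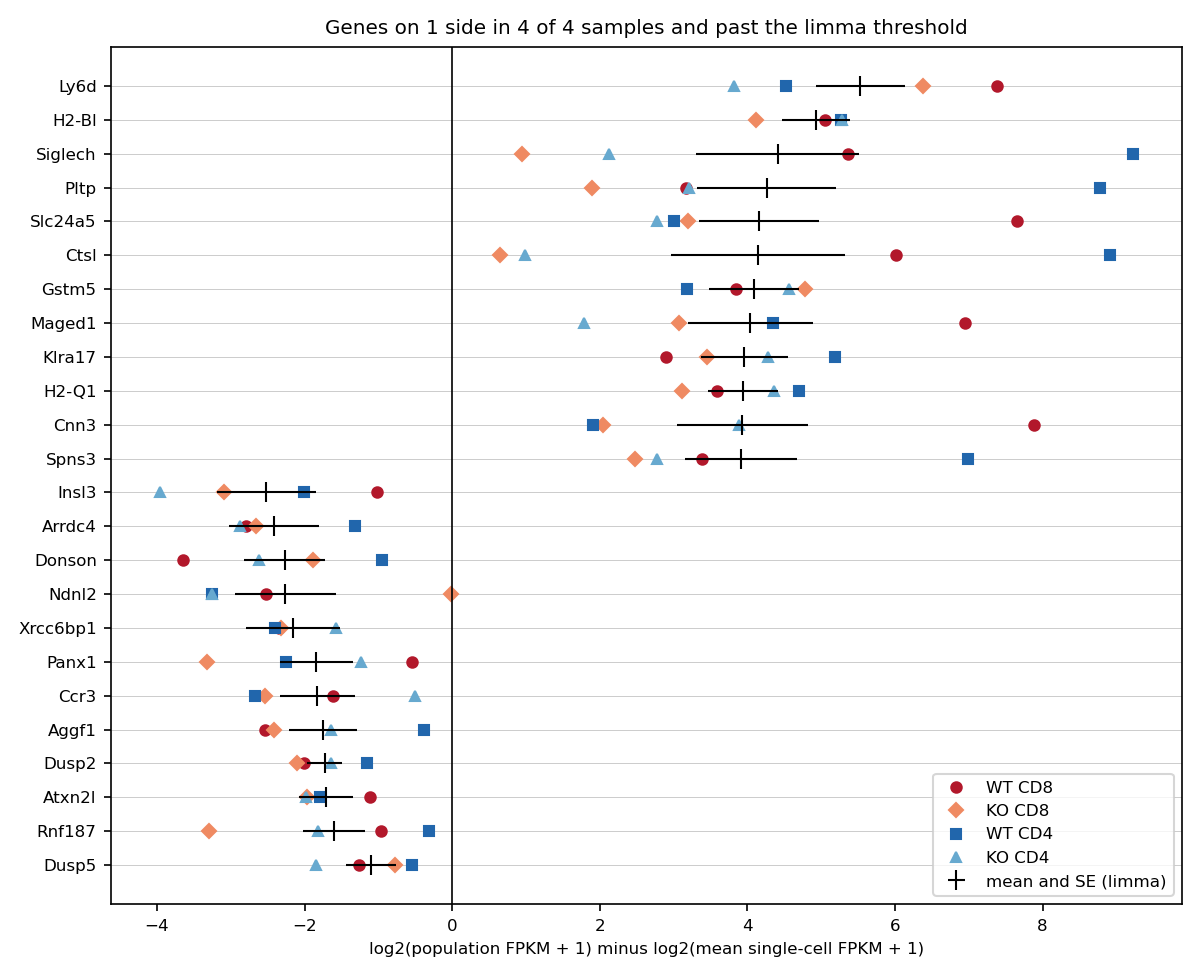
For genes on 1 side in 4 of 4 samples and past the limma threshold, the plot gives the population minus single-cell difference in log2(FPKM + 1) in each sample as a point. Ly6d lies between 3.82 and 7.38, and Dusp2 between -2.10 and -1.15.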

How the data were processed

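The deposited table holds FPKM per gene and library, which the authors scaled by TMM (trimmed mean of M values), per the labels, after Bowtie alignment to mm10 and RSEM estimation, per the submitters' processing notes. Tool versions and the annotation are not given in the sources used here. Libraries were Smart-seq2 with 21 PCR cycles, per the labels' protocols, without molecular identifiers, so intervals cover counting error only. The table's 23420 genes in 378 libraries were read with Python 3.11.15, and the 4 population columns were each set beside the mean of the same group's single cells with at least 1000 genes above 0. The pairing comes from the titles. Differences used a pseudocount of 1 FPKM. The fit over 4 samples was limma 3.58.1 (trend, pair as block, mean log2 of at least 1, Benjamini-Hochberg adjustment over all genes tested), tested on simulated data first. The residual spread is between 4 unlike samples; nothing says that they came from separate animals. No test used cells as replicates.

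Gene names came from the table, with 5 of 362 listed symbols matched through older names and 2 unmatched (Ly6g and Hbb-bt). Genes were named by rule: per library the 10 furthest above and 5 furthest below the cells, the 12 largest each way over the 4 samples among those past the threshold, fixed markers and 2 members per list, without T cell receptor, immunoglobulin, mitochondrial, predicted, RIKEN or small RNA genes. Other list members and genes were named after their values were seen. The members and lists were chosen with earlier results of these data known. Gene coordinates are from a mouse annotation of the same build. Some items are not reported here.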

Additional observations from a re-analysis of the deposited data

Results flagged for a closer look

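Melanoma genes also appeared in single-cell libraries left out for having fewer than 1000 genes above 0. In the highest of the 15 left out of WT CD4 the summed FPKM of the melanoma list was 6316, above the 2224 of the highest kept WT CD4 cell. Tyr led it with 2319 FPKM, and 4 of the 20 melanoma genes were above 0. A second left-out WT CD4 library had 4418 FPKM from Rab38 alone. In the other groups the highest left-out library reached 152.4 FPKM in WT CD8, 23.7 in KO CD8 and 19.8 in KO CD4. These libraries enter none of the comparisons; a high FPKM in a library with few genes can rest on few reads, which the values do not show.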

How the results depend on the processing

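Among the values that answer a comparison, 82 moved and 2 reversed across the alternatives, and the rest kept within the spread set for them. Of single genes and other lists, 2207 stayed, 964 moved and 24 reversed. A further 3.85% lost the limma threshold, a label used only for limma results on single genes. Lost 4-fold calls were not counted. A list median or single-library difference counted as reversed only if it was at least 2 in size as deposited. Smaller values that changed sign, such as the T cell medians on rescaling, were not counted as reversed. The cause was not tested. Values are given with CD8 before CD4 and WT before KO, and called genes as percent of those tested as deposited. With a pseudocount of 10, higher genes were 4.55%, 2.32%, 4.32% and 2.12% and lower 0.188%, 0.14%, 0.129% and 0.38%, the melanoma median in WT CD8 was 2.91, class II -1.12 in WT CD8 and 3.23 in WT CD4, and macrophage 0.59 in KO CD8 and 1.7 in WT CD4. With every single-cell library, WT CD8 had 23.5% higher and 1.2% lower and KO CD8 1.13% lower. Rescaled to the same total, higher were 5.35%, 3.36%, 5.43% and 3.58% and lower 12.3%, 4.43%, 8.51% and 6.93%, with medians of 3.87 (melanoma, WT CD8), 2.72 (class II, WT CD4), 0.92 and 2.15 (macrophage, KO CD8 and WT CD4) and -0.52, -0.43, -0.17 and -0.19 (T cell); Trpm1 in WT CD8 (-0.34) and Ccnb1 in WT CD4 (-0.23) reversed. Without each gene's highest cell, higher were 24.5%, 22.2%, 29.1% and 20.3% and lower 0.41%, 0.547%, 0.47% and 0.832%, with class II at 0.92, 3.3 and 1.75 (WT CD8, KO CD8, KO CD4), melanoma 1.61 (WT CD4) and macrophage 4.43 and 2.45 (WT CD4, KO CD4). Reversed in WT CD8 were Alox5ap (2.72), Cd74 (3.04), H2-Aa (4.49), H2-Ab1 (0.38), H2-Eb1 (1.6), P2ry6 (1.8), Rnase6 (2.94) and Sfpi1 (1.48), in KO CD8 Ccr3 (1.06) and Il10 (2.31), and in WT CD4 Ccl1 (2.77). Without marker-bearing cells, an alternative chosen after seeing the data, KO CD8 had 17% higher, class II was 1.66, 7.99 and 4.65 (WT CD8, KO CD8, KO CD4) and macrophage 2.56, 4.2 and 3.16 (KO CD8, WT CD4, KO CD4); reversed were, in WT CD8, Alox5ap (2.72), Cd74 (4.04), H2-Aa (5.32), H2-Ab1 (5.67), H2-Eb1 (2.07), P2ry6 (1.8), Rnase6 (2.94) and Sfpi1 (1.48), and Cd209a in KO CD8 (4.11). With at least 2000 genes per cell, Ccr3 (1.0) and Il10 (2.31) reversed in KO CD8. With no minimum level, lower were 5.09%, 4.75%, 5.64% and 6.41%; with 100 FPKM, higher were 3.41%, 1.84%, 2.62% and 1.47% and lower 0.0938%, 0.116%, 0.0118% and 0.0713%.

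For limma over the 4 pairs, 2184 higher and 21 lower with the pair as block became 907 and 6 with no replicate block. They became 599 and 6 with no filter, 4064 (17 lower) with every single-cell library, 1216 (19) with at least 2000 genes per cell, 5354 (16) without the highest cell, 2725 (18) without marker-bearing cells, 2 and 5 rescaled, and 1 and 1 centred (the marker-cell and centred fits were added after seeing the data). Leaving out 1 sample gave 944 to 1379 higher and 3 to 13 lower: 1299 and 7 without WT CD8, 1059 and 3 without KO CD8, 944 and 13 without WT CD4 and 1379 and 6 without KO CD4. Depth limits every value at or near 0, since FPKM carries no counts.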
